A study of Mus musculus with 9 samples.

Results

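Transcripts of T cells and natural killer (NK) cells were measured in myeloid cells sorted from mouse blood and from the mouse brain after stroke. The set holds 10 listed genes of the 53801 genes in the count files: the CD3 chain genes Cd3d, Cd3e and Cd3g, the co-receptor gene Cd8a, the NK receptor genes Ncr1 and Klrb1c, and the cytotoxic granule genes Nkg7, Gzma, Gzmb and Prf1. The members are listed by name, with no threshold on a measured value. All mice were male C57BL/6J of 9 weeks, with no transgene or deletion named. Stroke was made by closing the distal middle cerebral artery and the common carotid artery of the left side for good (dMCAO), and cells were taken 5 days later. The 9 RNA-seq libraries fall into sham blood (3), stroke blood (3) and stroke brain (3); the day of collection of the sham blood was not named. Each blood library came from 1 mouse and each brain library from a pool of 5 perfused brains, so the spread between brain libraries is between pools. Cells were sorted from the mononuclear fraction as CD11b+, CD45 high, CD11c- and Ly6G-, and no antibody against CD3 or NK1.1 was part of the stain.

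CD3 chains carry the signal of the T cell receptor, and the CD8 co-receptor marks the T cells that kill target cells. NK cells lack surface CD3, kill through the same perforin and granzyme granules as CD8 T cells, and carry CD11b when mature, which is also the antigen by which the monocytes and macrophages of these libraries were sorted. A granule transcript therefore does not name the cell it came from, whereas Cd3d, Cd3e and Cd3g on the T cell side and Ncr1 on the NK side are closer to markers of a lineage.

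The gate was set for monocytes and macrophages, and the lymphocyte transcripts were a small part of each library. Library totals ran from 18475118 to 22623578 counts. Levels below are counts scaled to a library total of 1000000 (CPM). The 6 monocyte and macrophage markers summed to between 87200 and 123000 CPM in sham blood, 96300 and 107000 in stroke blood and 44500 and 50300 in stroke brain. Lyz2 made up most of each sum, with means of 96500, 92200 and 40900 CPM in these groups. The means of Ly6c2, Ccr2 and Adgre1 were also lowest in the brain. Those of Csf1r (2570, 2510 and 3340) and Cx3cr1 (331, 480 and 806) were highest there, so the sums do not measure the share of these cells. The 6 microglia markers summed to 1190 to 3130 CPM in the brain against 126 to 197 in both blood groups, so the brain libraries also held transcripts of resident cells. Sham blood 1 stood apart, with 15.4 CPM over 6 platelet genes (384 and 572 in sham blood 2 and 3) and 925 CPM over 5 erythroid genes (27700 and 24700), and it was also the sham library with the lowest level of every NK and granule member but Gzmb.

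The promoters of the cytotoxic and NK members differed in their letters from those of the CD3 members. The 250 bases before the RefSeq transcription start were searched on both strands for TCACAC (a T-box site), TGTGGT (a RUNX site) and AGGAAG (an ETS core). All 10 members were found in the table. The windows of Gzmb, Prf1, Ncr1 and Cd3d are shown because they stand for both sides of the contrast; capitals mark every match to these letters or to their reverse complement, and each is written 5′ to 3′ on the gene's strand in GRCm38.p6. They lie at chr14:56262335-56262584 (minus strand) for Gzmb, chr10:61297586-61297835 (plus) for Prf1, chr7:4337465-4337714 (plus) for Ncr1, the first of 2 starts listed, and chr9:44981536-44981785 (plus) for Cd3d.
Gzmb: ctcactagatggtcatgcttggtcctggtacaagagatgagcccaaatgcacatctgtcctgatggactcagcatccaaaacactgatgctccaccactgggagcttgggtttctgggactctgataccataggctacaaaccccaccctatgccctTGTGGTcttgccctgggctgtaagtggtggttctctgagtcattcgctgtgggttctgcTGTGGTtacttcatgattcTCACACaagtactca
Prf1: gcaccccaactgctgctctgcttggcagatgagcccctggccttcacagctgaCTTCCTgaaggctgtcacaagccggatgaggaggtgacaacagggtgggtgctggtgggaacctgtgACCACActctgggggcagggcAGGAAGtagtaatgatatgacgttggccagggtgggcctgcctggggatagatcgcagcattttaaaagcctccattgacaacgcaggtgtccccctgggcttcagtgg
Ncr1: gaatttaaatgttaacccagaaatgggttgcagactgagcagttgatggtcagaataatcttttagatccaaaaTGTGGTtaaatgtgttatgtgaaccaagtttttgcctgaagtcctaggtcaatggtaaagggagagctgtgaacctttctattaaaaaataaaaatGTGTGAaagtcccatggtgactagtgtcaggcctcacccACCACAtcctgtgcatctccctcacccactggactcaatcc
Cd3d: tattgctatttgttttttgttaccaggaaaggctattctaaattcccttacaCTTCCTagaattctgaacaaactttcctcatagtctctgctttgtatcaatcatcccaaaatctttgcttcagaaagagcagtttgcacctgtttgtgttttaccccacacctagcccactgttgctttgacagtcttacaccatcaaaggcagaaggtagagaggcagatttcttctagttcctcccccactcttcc
The RUNX letters were found before all 6 cytotoxic and NK members and before 0 of the 4 CD3 and CD8 members, and 14.0% of all 32851 windows of this length held them. The T-box letters were found before Nkg7, Gzmb and Ncr1 and before 0 of the 4 CD3 and CD8 members, against 12.3% of all windows. The ETS letters were found before 3 of 6 and 2 of 4, against 29.5% of all windows. The matches did not overlap, except for a pair of ETS matches before Klrb1c. A match here describes letters in a window and not a bound site.

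Per kilobase of exon, the cytotoxic and NK members had higher mean levels than the CD3 and CD8 members in each of the 3 groups. In stroke brain the mean level was 527 ± 211 CPM per kb for Gzma, 389 ± 111 for Nkg7, 106 ± 41.7 for Gzmb, 98.7 ± 38.3 for Prf1, 45.6 ± 21.2 for Ncr1 and 17.3 ± 7.61 for Klrb1c (SD, n = 3 pools). The CD3 and CD8 members followed with 4.28 ± 0.562 CPM per kb for Cd3d, 3.34 ± 1.24 for Cd3g, 1.07 ± 0.761 for Cd8a and 0.938 ± 1.08 for Cd3e. The order was the same in both blood groups, except that Cd8a was there the lowest. Most neighbours in this order overlapped between libraries. Nkg7 and Gzmb did not overlap in any group, nor did Cd3g and the gene below it, and Klrb1c and Cd3d overlapped in sham blood but in neither stroke group.

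**Figure D1:**
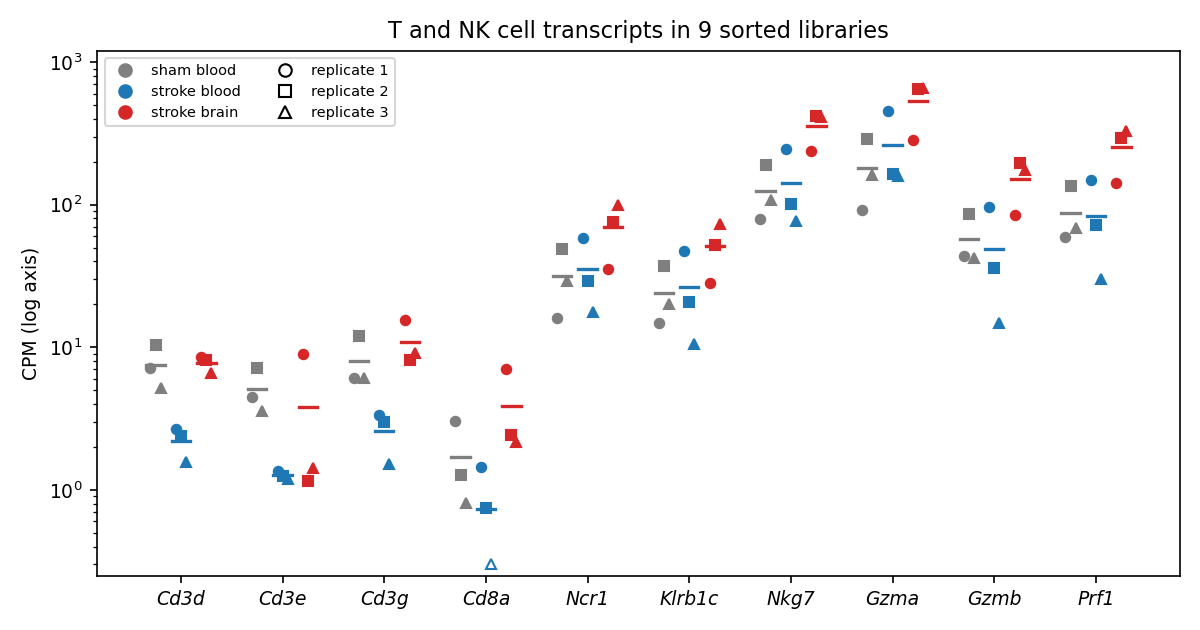
CPM (log axis) of the 10 members in the 9 libraries, with colour for the group, symbol for the replicate number and a bar for the group mean; an open triangle at the foot stands for a count of 0. The means of the 3 CD3 genes are lowest in stroke blood, and the means of the cytotoxic and NK genes are highest in stroke brain.

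The CD3 genes lie together on chromosome 9 (GRCm38). Cd3g (ENSMUSG00000002033, chr9:44969572-44980431, minus strand) and Cd3d (ENSMUSG00000032094, chr9:44981786-44987339, plus strand) are transcribed away from each other from starts 1354 bases apart, and Cd3e (ENSMUSG00000032093, chr9:44998740-45009627, minus strand) lies 11400 bases beyond Cd3d. Cd3e overlaps exons of the antisense model Gm48719, which had 0 counts in all 9 libraries. Since the strand setting of the counting was not stated, reads of the pair cannot be told apart.

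Cd3d, the gene of the CD3 delta chain, was at 7.15, 10.3 and 5.20 CPM in sham blood 1, 2 and 3, at 2.65, 2.37 and 1.57 in stroke blood 1, 2 and 3, and at 8.58, 8.09 and 6.62 in stroke brain 1, 2 and 3. Every stroke blood library was below every library of the other groups, and sham blood and brain overlapped. Cd3g, the gene of the gamma chain, was at 6.13, 11.9 and 6.12 CPM in sham blood, 3.33, 2.97 and 1.51 in stroke blood and 15.6, 8.13 and 9.07 in stroke brain. Its groups were placed in the same way. Cd3e, the gene of the epsilon chain, was at 4.48, 7.19 and 3.57 CPM in sham blood, 1.35, 1.25 and 1.19 in stroke blood and 8.90, 1.15 and 1.43 in stroke brain. Cd3e thus separated from the other CD3 genes in the brain, where pools 2 and 3 lay just below and just above the range of stroke blood and pool 1 was above every blood library.

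Cd8a (ENSMUSG00000053977, chr6:71373427-71379173), the alpha chain of the CD8 co-receptor, had the lowest levels per kilobase in blood. It was at 3.02, 1.27 and 0.812 CPM in sham blood, 1.45, 0.742 and 0 in stroke blood and 7.09, 2.43 and 2.17 in stroke brain. The 0 counts of stroke blood 3 allow a level of up to 0.162 CPM. All 3 brain libraries were above all 3 stroke blood libraries, and brain pool 1 was again the highest.

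Ncr1 (ENSMUSG00000062524, chr7:4337724-4345164), the activating NK receptor NKp46, was at 16.0, 49.2 and 29.2 CPM in sham blood, 58.2, 29.3 and 17.8 in stroke blood and 35.4, 75.1 and 100 in stroke brain. The highest blood library, stroke blood 1, was above the lowest brain library, and the 3 groups overlapped. Klrb1c (ENSMUSG00000030325, chr6:128778485-128789215), which encodes the NK1.1 antigen, was at 14.9, 37.2 and 20.0 CPM in sham blood, 47.5, 20.7 and 10.5 in stroke blood and 28.4, 51.9 and 73.5 in stroke brain. It put the libraries in nearly the same order as Ncr1. Its exons overlap the model Gm44511 on the same strand (0 counts in all libraries), and it belongs to a gene family with similar copies, so its counts are uncertain to that extent.

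Gzma (ENSMUSG00000023132, chr13:113093825-113100981), the serine protease granzyme A, was the highest member at 92.4, 290 and 162 CPM in sham blood, 457, 165 and 159 in stroke blood and 284, 642 and 662 in stroke brain. Nkg7 (ENSMUSG00000004612, chr7:43437073-43438249), a membrane protein of cytotoxic granules, was at 78.8, 189 and 107 CPM in sham blood, 247, 101 and 76.9 in stroke blood and 238, 417 and 409 in stroke brain. Both genes had their highest blood value in stroke blood 1 and their lowest brain value in pool 1, where CD3 values were highest. Gzmb (ENSMUSG00000015437, chr14:56258838-56262260), granzyme B, was at 43.4, 85.7 and 42.5 CPM in sham blood, 95.9, 36.2 and 14.9 in stroke blood and 84.5, 196 and 176 in stroke brain. Prf1 (ENSMUSG00000037202, chr10:61297833-61304680), the pore-forming protein perforin, was at 59.2, 135 and 68.5 CPM in sham blood, 148, 72.2 and 30.0 in stroke blood and 142, 294 and 328 in stroke brain. For Nkg7 and Prf1 all 3 brain pools were above all 3 sham libraries; for Gzma and Gzmb pool 1 fell just below sham blood 2.

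Stroke brain was compared with stroke blood first, which sets sorted cells of the injured tissue against circulating cells at the same day. Cd3d and Cd3g were higher in the brain, by 1.67 ± 0.35 and 1.91 ± 0.40 on the log2 scale (SE), or 3.17-fold and 3.76-fold, with adjusted p of 0.00688 and 0.00707 in edgeR's quasi-likelihood test (Benjamini-Hochberg over 13189 genes). A gene was called when its log2 fold change was above 1 in size and its adjusted p below 0.05. Both calls held when any of the 6 libraries was left out. In RNA from a sorted population, more cells of a type and more RNA per cell cannot be told apart. All 10 members had estimates above 0, 2 of 10 were called higher and 0 lower, while 13.1% of all genes tested were called higher and 7.86% lower. Groups did not overlap for 3 of 10 (Cd3d, Cd3g and Cd8a), against 49.2% of all genes tested.

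The other 8 members were not called in edgeR. The estimate for Cd8a was 2.24 ± 0.96 (adjusted p = 0.106) and for Cd3e 1.43 ± 0.76 (0.184). The granule members were at 1.49 ± 0.57 for Gzmb (0.0745), 1.47 ± 0.50 for Prf1 (0.0523), 1.18 ± 0.40 for Nkg7 (0.0515) and 0.88 ± 0.44 for Gzma (0.161), and the NK receptors at 0.86 ± 0.45 for Ncr1 (0.181) and 0.82 ± 0.50 for Klrb1c (0.243). With DESeq2, Nkg7 (adjusted p = 0.007) and Cd8a (0.0395) were called among these 8, and the rest were not. In edgeR, calls among the 8 depended on stroke blood 1. Without it, 7 members were called, the added genes being Nkg7 (1.81, adjusted p = 0.00501), Gzma (1.52, 0.0227), Gzmb (2.41, 0.0111), Prf1 (2.15, 0.0153) and Klrb1c (1.54, 0.0441). They also depended on brain pool 1. Without it 5 members were called, with Nkg7 at 1.41 (0.0291), Gzmb at 1.79 (0.0427) and Prf1 at 1.77 (0.0257), and the estimate for Cd3e turned to -0.11.

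Markers of other cells moved with this change from stroke blood to brain. Beside the microglia markers, those of conventional dendritic cells summed to 83.5 to 211 CPM in stroke blood and 559 to 694 in the brain (4 of 5 called higher), and those of plasmacytoid dendritic cells to 117 to 153 and 190 to 337 (2 of 4). Neutrophil markers summed to 437 to 772 CPM in stroke blood and 887 to 1460 in the brain (5 of 7 tested called higher and 1 lower), and basophil and mast cell markers to at most 3.39 and 17.6. Erythroid markers went the other way, with 10700 to 14200 CPM against 3.57 to 12.4 (5 of 5 called lower), as did platelet markers with 271 to 333 against 37.3 to 83.6 (5 of 6). The part of these cells in the levels of the 10 members was not tested.

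**Figure D2:**
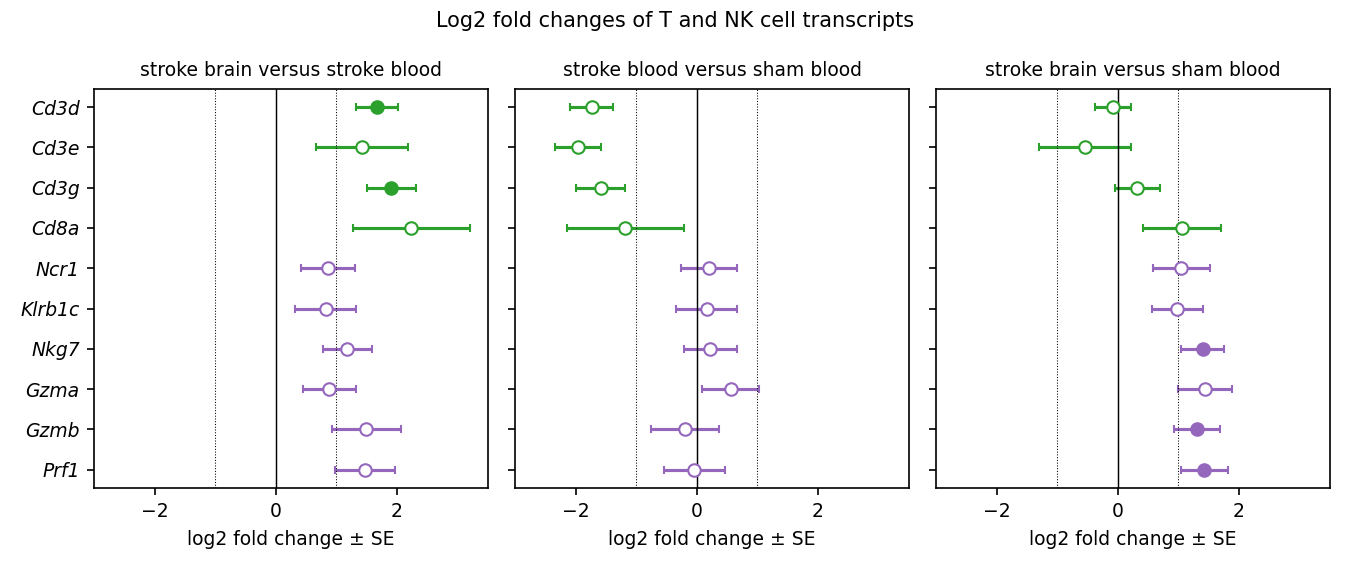
Log2 fold change with SE (x axis) of the 10 members in each of the 3 comparisons, green for CD3 and CD8 genes and purple for NK receptor and granule genes; filled points were called and dotted lines mark a log2 change of 1 in size. Only Cd3d and Cd3g are filled for brain against stroke blood, and only Nkg7, Gzmb and Prf1 for brain against sham blood.

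Stroke blood was compared with sham blood next, which asks what stroke does to the same sort of circulating cells. All 3 CD3 genes had lower levels in every stroke library than in any sham library, with estimates of -1.74 ± 0.36 for Cd3d, -1.96 ± 0.38 for Cd3e and -1.59 ± 0.40 for Cd3g (log2, SE), which are 3.34-fold, 3.89-fold and 3.01-fold lower levels. None passed the test: the adjusted p was 0.285 for each in edgeR over 12664 genes, and the unadjusted p was 0.000895, 0.000595 and 0.00322. These 3 were the only members of 10 with an unadjusted p below 0.05, and the share of all genes at that level was not counted. With DESeq2 all 3 were called, with adjusted p of 0.00221, 0.00208 and 0.0150. They were called as well with no filter on low counts (0.0115, 0.0128 and 0.0252). Over all genes edgeR called 0.0079% higher and 0% lower, that is 1 gene, and DESeq2 called 133. Groups did not overlap for 18.7% of all genes tested and for 3 of 10 members.

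The NK and granule members were not called either. Their estimates were 0.20 ± 0.46 for Ncr1, 0.16 ± 0.50 for Klrb1c, 0.22 ± 0.44 for Nkg7, 0.56 ± 0.47 for Gzma and -0.19 ± 0.56 for Gzmb, and that of Prf1 was -0.04 ± 0.50 with a turn to 0.05 under upper-quartile scaling. Adjusted p lay between 0.637 and 0.981 and all 6 overlapped between groups. Cd8a was at -1.18 ± 0.97 (adjusted p = 0.626). Whether the CD3 genes and the NK genes differed from each other in their change was not tested.

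Markers of other cells moved beside the CD3 genes. Of the 8 B cell markers, Cd79a (-1.69 ± 0.38), Ms4a1 (-1.49 ± 0.32), Ebf1 (-2.58 ± 0.63), Blk (-1.31 ± 0.39) and Cd79b (-0.65 ± 0.20) were lower in every stroke blood library than in any sham library. Groups did not overlap for 18.7% of all genes tested. Their adjusted p was 0.285 to 0.299 in edgeR, so none was called. Ighm, the heavy chain gene of IgM, was at 0.00 ± 0.20, and the list summed to 690 to 990 CPM in sham blood, 593 to 728 in stroke blood and 461 to 737 in stroke brain. Neutrophil markers were lower as well: 7 of 7 tested had estimates below 0, with a median of -1.32. Of these, 4 had an unadjusted p below 0.05 in edgeR, 1 did not overlap between groups and 0 were called. The part of other cells in the lower CD3 levels was not tested.

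Stroke brain was compared with sham blood last, and this comparison shares its libraries with the other comparisons. Here granule genes were called and CD3 genes were not. Nkg7 was higher by 1.40 ± 0.35 (2.63-fold, adjusted p = 0.0276), Prf1 by 1.43 ± 0.39 (2.70-fold, 0.0397) and Gzmb by 1.30 ± 0.38 (2.47-fold, 0.0477) in edgeR over 13020 genes. Thus 3 of 10 members were called higher and 0 lower, against 9.75% and 3.67% of all genes tested, and groups did not overlap for 2 of 10 (Nkg7 and Prf1), against 41.7%. Gzma was at 1.44 ± 0.45 (0.0608), Ncr1 at 1.05 ± 0.47 (0.157), Klrb1c at 0.98 ± 0.42 (0.141) and Cd8a at 1.06 ± 0.65 (0.294). The CD3 estimates were 0.32 ± 0.37 for Cd3g (0.582) and -0.55 ± 0.76 for Cd3e (0.650), and for Cd3d -0.08 ± 0.30 (0.879), which became 0.04 when scaled by library size only.

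These 3 calls depended on which libraries were kept in the fit. Without sham blood 1 the adjusted p became 0.0576 for Nkg7, 0.120 for Gzmb and 0.0995 for Prf1, and 0 members were called. The count was also 0 without sham blood 3 (0.0934, 0.143 and 0.125), without brain pool 2 (0.0894, 0.146 and 0.113) and without brain pool 3 (0.0875, 0.131 and 0.121). Without sham blood 2, 4 were called with Gzma added (1.91, 0.0388). Without brain pool 1, 5 were called, with Gzma higher (1.74, 0.0308) and Cd3e lower (-2.08, 0.0238). The direction of Nkg7, Gzma, Gzmb and Prf1 was higher in all 6 of these fits, with estimates between 1.07 and 1.91. Each of these fits has fewer libraries than the main fit. With no library left out, the adjusted p of Nkg7 and Gzmb was 0.000521 and 0.00353 in DESeq2. It was 0.00963 and 0.0248 in edgeR with a replicate block. In an edgeR fit of all 9 libraries only Nkg7 was called.

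Within a library the cytotoxic and NK members varied less against each other than the CD3 members did against them. Counts per Ncr1 count in the same library varied by 1.57-fold from the lowest to the highest of the 9 libraries for Klrb1c (0.593 to 0.933), by 1.61-fold for Gzma (5.54 to 8.93), by 1.95-fold for Nkg7, by 2.38-fold for Prf1 and by 3.24-fold for Gzmb. For Cd3g the same ratio varied by 7.69-fold, for Cd3d by 9.84-fold and for Cd3e by 19.6-fold (0.0143 to 0.280). Gzmb and Prf1 were lowest against Ncr1 in stroke blood, at 0.839 to 1.65 and 1.69 to 2.55, and Prf1 did not overlap between stroke blood and brain (3.28 to 4.02). The members of a library share its depth, which cancels in such a ratio.

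**Figure D3:**
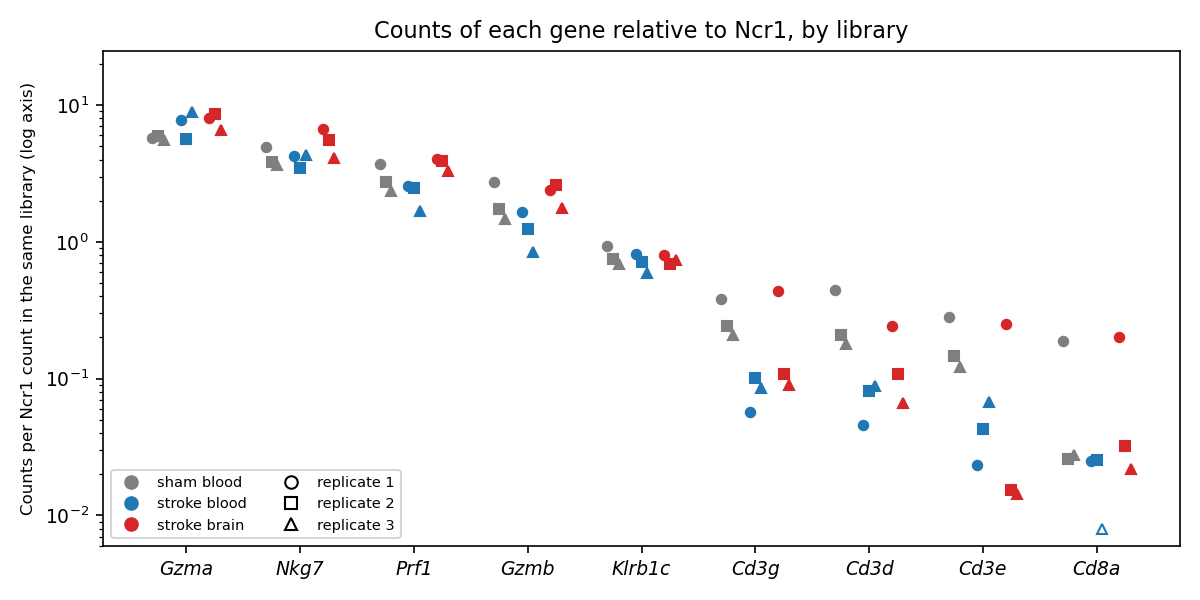
Counts of each member per Ncr1 count in the same library (log axis), with colour for the group and symbol for the replicate number; an open triangle stands for a count of 0. Gzma, Nkg7 and Klrb1c stay in narrow bands in all 9 libraries, and the CD3 genes and Cd8a spread widely.

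The summed CPM of Cd3d, Cd3e and Cd3g was 57.6%, 34.1% and 30.2% of the summed CPM of Ncr1 and Klrb1c in sham blood 1, 2 and 3. It was 6.93%, 13.2% and 15.1% in stroke blood and 51.8%, 13.7% and 9.86% in stroke brain. Every stroke blood library was below every sham library, and brain pools 2 and 3 lay near stroke blood while pool 1 lay within the sham range. On the log2 scale the ratio was -1.36 ± 0.49 in sham blood, -3.17 ± 0.60 in stroke blood and -2.39 ± 1.27 in stroke brain (SD, n = 3), and without brain pool 1 the brain value was -3.11. The sums show how pool 1 differed: it held 33.1 CPM of CD3 genes and 63.8 CPM of NK receptor genes, the highest CD3 and lowest NK values among the brain pools (the CD3 sums of the others were 17.1 and 17.4).

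**Figure D4:**
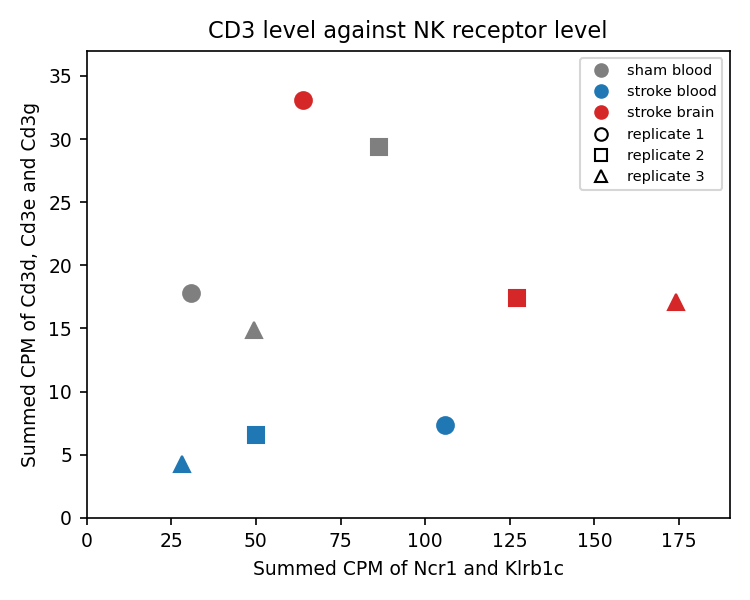
Summed CPM of Cd3d, Cd3e and Cd3g (y axis) against summed CPM of Ncr1 and Klrb1c (x axis), 1 point for each library, colour for the group and symbol for the replicate number. Stroke blood lies at 4.26 to 7.33 CPM of CD3 genes, below all other libraries, and brain pools 2 and 3 lie farther right than brain pool 1.

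The same split appears in how the members deviated from their group means. Over the 9 libraries and 11694 genes with a mean of at least 1 CPM, the correlation with Ncr1 of the deviations of log2(CPM + 1) was 0.973 for Klrb1c, 0.960 for Gzma, 0.951 for Nkg7, 0.942 for Prf1 and 0.890 for Gzmb, which placed them 4th, 15th, 24th, 32nd and 94th. It was 0.360 for Cd3d, 0.295 for Cd3g, -0.230 for Cd8a and -0.345 for Cd3e. The 10 genes most like Ncr1 were Rapgef5, Klrc2, Cd160, Klrb1c, Klra4, Gimap6, Pvrig, Gm6637, F2r and Eid2b (0.966 to 0.988), of which Klrc2, Cd160 and Klra4 encode NK receptors. The 10 most like Cd3e were Hsf1, Mark2, Col4a1, Rel, Tns1, Cblb, Cpe, Ace, Acap3 and Parp6 (0.967 to 0.982), and none of these is in the T cell list. Cd3g ranked 728th (0.758) and Cd3d 2489th (0.471) in likeness to Cd3e, whose largest deviation was that of brain pool 1. These are descriptions over libraries that share groups and sorts, with no test.

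Other T cell, NK cell and granule genes, listed by name, were counted beside the members. In brain against stroke blood 17 of 26 T cell genes tested (29 listed), 8 of 26 NK genes (27 listed) and 7 of 13 granule and effector genes (14 listed) were called higher and 0 lower, against 13.1% of all genes tested called higher and 7.86% lower. Their median log2 fold changes were 1.66, 0.99 and 1.22, and that of all genes was 0.06. Some called genes passed the low-count filter through the brain alone. Gzmk, Gzmm and Themis are named after their values were seen. They averaged 0.136, 0.361 and 0.0309 CPM in stroke blood and 2.86, 1.66 and 1.46 in the brain. Of the T cell genes not tested, Ctla4 and Foxp3 had higher means in the brain and Trat1 a lower one. Ctla4 ran from 0.398 to 4.69 CPM in the brain and from 0 to 0.289 in stroke blood. Foxp3 ran from 0 to 4.69 CPM in the brain and from 0 to 1.86 in stroke blood, so its groups overlapped. With no filter on low counts 19 of 29, 9 of 27 and 7 of 14 genes were called higher and 0 lower. Called genes included Lck (1.67 ± 0.34, adjusted p = 0.00618), the kinase of the T cell receptor that NK cells also use, Cd247 (1.58 ± 0.39, 0.0150), the zeta chain of both the T cell receptor and NK receptors, and Cd8b1 (3.25 ± 0.65, 0.00546), the beta chain of CD8. Among receptors of NK cells, Klrk1 (NKG2D, 1.70 ± 0.31, 0.00357) and Klrd1 (CD94, 1.45 ± 0.36, 0.0149) were called, as were the transcription factor genes Eomes (1.77 ± 0.48, 0.0211) and Tbx21 (1.61 ± 0.49, 0.0331). Of the 26 NK genes tested 18 were not called, and 3 had estimates below 0. Ccl5, a chemokine stored by T and NK cells (1.33 ± 0.39, 0.0297), Ctsw, the protease cathepsin W (1.22 ± 0.32, 0.0179), and Serpinb9, an inhibitor of granzyme B (1.50 ± 0.40, 0.0204), were called too. The sort was set for monocytes and macrophages, and which cells these transcripts came from was not tested in any comparison. Trbc2, a constant region of the T cell receptor, was called at 1.10 ± 0.35 (0.0407), while Trac, that of the alpha chain, was at 1.64 ± 0.58 (0.0568) and Cd4 at 0.88 ± 0.57 (0.272). These counts varied with the libraries. With 1 library left out they ran from 7 of 28 (without stroke blood 3; 10 of 27 without stroke blood 2) to 14 for T cell genes. For NK genes they were 2, 4, 4 and 3 without stroke blood 2, stroke blood 3, brain pool 2 and brain pool 3, and 15 and 12 without stroke blood 1 and brain pool 1. For granule genes they were 1, 2 and 2 without stroke blood 2, stroke blood 3 and brain pool 3, and 6 to 7 otherwise.

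In stroke blood against sham blood 0 genes of the 3 lists were called in edgeR. With no filter on low counts 5 of 29 T cell genes were called lower, and DESeq2 called 4 of 29 lower, namely Trac (adjusted p = 0.00722), Lef1 (0.0232), Cd8b1 (0.0394) and Ubash3a (0.0441), of which Lef1 and Ubash3a are named after their values were seen. Both called 0 genes of the NK and granule lists. Of 28 T cell genes tested 26 had estimates below 0, 12 had an unadjusted p below 0.05 and 10 did not overlap between groups, all of them lower, against 18.7% of all genes without overlap in either direction. The shares of all genes with estimates below 0 or an unadjusted p below 0.05 were not counted. The list had a median of -0.97 against -0.03 for all genes. Trac was at -1.55 ± 0.37, Trbc2 at -1.05 ± 0.34, Cd8b1 at -2.12 ± 0.63 and Cd4 at -1.61 ± 0.61. Lck (-0.52 ± 0.43) and Cd247 (-0.63 ± 0.46), which NK cells share, were nearer to 0. So were Trbc1 (-0.21 ± 0.39) and Trdc (0.18 ± 0.74), other constant regions of T cell receptors, named after their values were seen. Themis, which encodes a signalling protein of T cells and was singled out after its values were seen, was at 0.778, 0.987 and 0.487 CPM in sham blood and at 0, 0.0928 and 0 in stroke blood. The NK list had a median of 0.32, with 20 of 26 estimates above 0 and 2 of 26 at an unadjusted p below 0.05, and the granule list had a median of 0.19 and 0 of 11 at that level.

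In brain against sham blood 2 of 29 T cell genes were called higher, Il7r (2.29 ± 0.31, adjusted p = 0.00338), the receptor chain for interleukin-7, and Zap70 (1.29 ± 0.33, 0.0314), a kinase of T and NK cells. Both were named after their values were seen. Of the NK genes 9 of 26 and of the granule genes 8 of 13 were called higher, and the share of all genes tested was 9.75%. Medians were 0.86, 1.22 and 1.47 for the 3 lists against 0.01 for all genes. With 1 library left out the counts were 1 to 7 for T cell genes (7 without sham blood 2, and 1 without sham blood 1, sham blood 3, brain pool 2 or brain pool 3). They were 4 to 12 for NK genes (4 without sham blood 3, brain pool 2 or brain pool 3) and 4 to 7 for granule genes (4 without sham blood 3, and 5 without each of the brain pools in turn). Klrk1 (2.12 ± 0.31, 0.00477), Klrd1 (1.93 ± 0.29, 0.00509), Ccl5 (1.86 ± 0.36, 0.0125), Ctsw (1.46 ± 0.37, 0.0311), Serpinb9 (1.19 ± 0.19, 0.00602) and Srgn, the granule proteoglycan serglycin that myeloid cells also make (1.09 ± 0.16, 0.00491), had the highest levels among those called. Trac (0.08 ± 0.57, 0.933), Trbc2 (0.05 ± 0.41, 0.948) and Cd4 (-0.73 ± 0.50, 0.338) were not called, nor were Lck (1.15 ± 0.34, 0.0511), Cd247 (0.95 ± 0.34, 0.0872), Cd8b1 (1.12 ± 0.49, 0.150), Eomes (1.57 ± 0.60, 0.107) and Tbx21 (1.24 ± 0.47, 0.105). Gzmk, granzyme K, was singled out after its values were seen and was at 0, 0 and 0.108 CPM in sham blood and at 3.95, 3.01 and 1.62 in the brain. It passed the low-count filter through the brain alone.

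**Figure D5:**
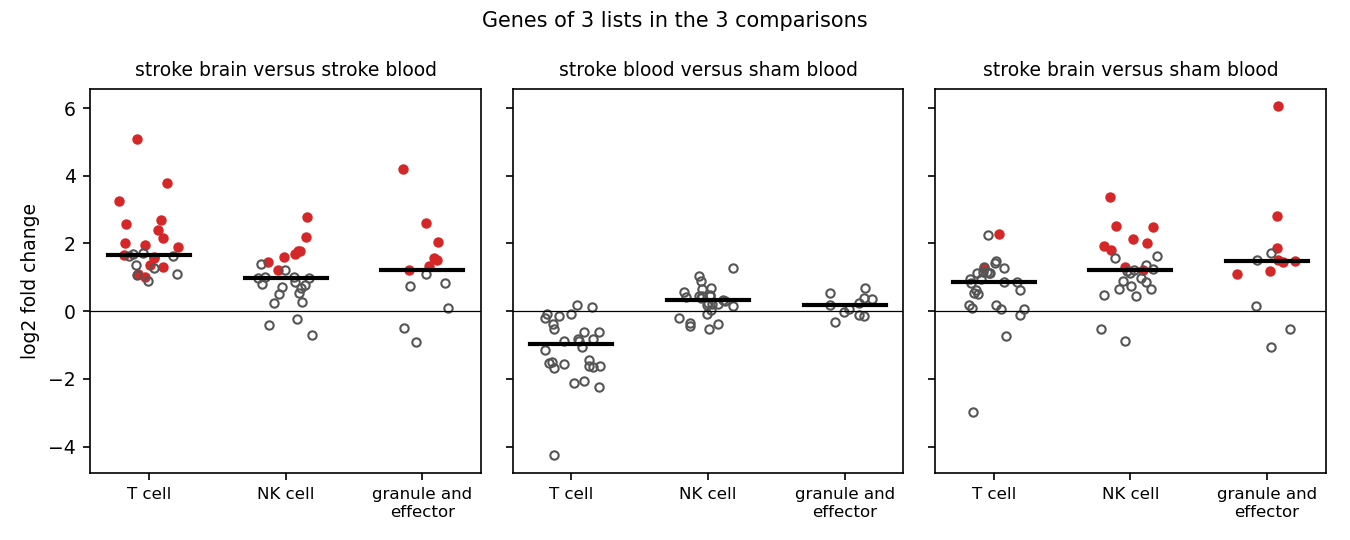
Log2 fold change (y axis) of each tested gene of the T cell, NK cell and granule and effector lists in the 3 comparisons, with red filled points for called genes and a bar for the list median. The T cell medians are 1.66, -0.97 and 0.86 from left to right, and those of the NK list 0.99, 0.32 and 1.22.

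Set against Ncr1, genes of these lists fell on both sides. Klrk1 was at 0.683 to 1.09 counts per Ncr1 count in sham blood, 0.800 to 1.15 in stroke blood and 1.31 to 2.56 in the brain, and the brain did not overlap with either blood group. The highest ratios of Klrk1 (2.56) and Klrd1 (1.23) were those of brain pool 1, the pool with the highest CD3 sum. Il7r was at 0.253 to 0.520 in the brain against 0.0213 to 0.0697 in stroke blood. Trac spread by 13.9-fold and Cd8b1 by 31.2-fold over the 9 libraries, as the CD3 members did, and Lck by 3.52-fold and Ccl5 by 2.57-fold.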

How the data were processed

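RNA-seq libraries of 9 sorted samples were used. The authors used HISAT2 for alignment (GRCm38) and HTSeq for counting, and deposited raw counts per gene, 1 file per library; versions, the annotation release and the strand setting are not given in the sources used here. Symbols, coordinates and exon lengths came from GENCODE M21 by Ensembl ID, which matched 53706 of the 53801 IDs, and promoter sequences from RefSeq (GRCm38.p6).

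Levels are CPM of the library total. Each comparison was fitted on its 6 libraries with edgeR 4.0.16 (R 4.3.3) by the quasi-likelihood test, with TMM scaling (factors 0.925 to 1.067), the default low-count filter and Benjamini-Hochberg adjustment over all genes tested, and a call needed an adjusted p below 0.05 and a log2 change above 1 in size. P-values rest on the spread between libraries, which are single mice in blood and pools in the brain. In the comparisons with the brain a shared dispersion for each gene was fitted over both kinds of library. DESeq2 1.42.0, other scalings, no filter, 1 fit of all libraries, a replicate block and leaving out each library were the alternatives.

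The 10 members and the lists were chosen with earlier results of these data known. The text names all members, 12 set genes of the lists (Trac, Trbc2, Cd247, Lck, Cd4, Cd8b1, Klrk1, Klrd1, Eomes, Tbx21, Ccl5 and Ctsw), the 6 called list genes of highest mean CPM in a comparison, and the 10 genes most like Cd3e and Ncr1; other names are marked as chosen after their values were seen or are defining markers of another cell type. 1 listed marker gene is not reported here.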

Additional observations from a re-analysis of the deposited data

How the results depend on the processing

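The call of Cd3d and Cd3g in brain against stroke blood held under every alternative run. The count of members called there was 4 with library size only, 4 with DESeq2 and 5 with no filter on low counts (main count 2), and 2 to 7 with 1 library left out. In stroke against sham blood it was 3 with DESeq2 and 3 with no filter (main count 0) and 0 with any library left out, and over all genes 133, 160 and 0 to 16 (main count 1, and 16 without sham blood 1). In brain against sham blood it was 1 in a fit of all 9 libraries (Nkg7) and 0 to 5 with 1 library left out (main count 3), and over all genes 1146 to 1883 (main count 1748; 1146 without sham blood 3). The causes were not tested, beyond fewer libraries in the fits that leave 1 out.

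Deviations from the group means had correlations between -0.07 and 0.066 for same-numbered libraries and between -0.08 and 0.115 for differently numbered ones. With 3 libraries in a group these values do not settle whether the replicate numbers pair them. With the replicate block 4 members were called in brain against stroke blood and 5 in brain against sham blood, and Klrb1c turned to -0.03 in stroke against sham blood.

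Some estimates changed sign. With 1 library left out, Cd3e ran from -0.11 to 1.86 in brain against stroke blood. In stroke against sham blood the ranges were -0.46 to 0.62 for Nkg7, -0.13 to 1.05 for Gzma, -1.14 to 0.22 for Gzmb, -0.75 to 0.40 for Prf1, -0.39 to 0.65 for Ncr1 and -0.59 to 0.60 for Klrb1c, and Prf1 was at 0.05 with upper-quartile scaling. In brain against sham blood they were -0.29 to 0.18 for Cd3d and -0.01 to 0.68 for Cd3g, and Cd3d was at 0.04 with library size only. That scaling moved the median of all genes from 0.06 to 0.22 in brain against stroke blood and from 0.01 to 0.13 in brain against sham blood, and upper-quartile scaling moved the former to -0.09. At levels of a few CPM, as for Cd8a and the CD3 genes, counting error adds to the spread between libraries.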
